A study of Drosophila melanogaster with 8 samples.

Results

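The comparison of pools 1 and 2 set RNA from a pair of separately collected pools of flies that had been treated alike against each other on 2 arrays, with the dyes exchanged between the arrays. These are 2 of the 8 arrays of a series in which 8 pools were compared in 4 pairs of this kind. Each pool held about 240 adult female *Drosophila melanogaster* of the Oregon-R strain, 4 to 10 days past adult emergence, from cultures with 16 h of light, 8 h of darkness and a relative humidity of 60%. All flies in all pools had received 2 mL of 99% ethanol in a Potter's tower, which lays down an even spray, and were collected after 6 h. Each direct labelling, with Cy3 or Cy5, took 80 µg of total RNA. On the normal-label array pool 1 carried Cy3 and pool 2 Cy5, and on the reversed-label array the dyes were exchanged. No treatment differs between the pools, so the question was which genes differ between pools of flies when nothing was done to make them differ, and whether both arrays show the same genes.

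The array was printed with cDNA clones, each as a pair of neighbouring spots, and each clone captures the labelled cDNA of the gene it came from and, in part, of close relatives in the same family. In such a like-like hybridization most ratios should be near 1, and what departs from 1 can belong to the RNA pools, to the dyes, to a spot or to a place on the slide. A dye swap separates the first of these from the second: a difference between pools stays with the pool when the dyes are exchanged, whereas a preference of a clone for 1 dye stays with the dye. In whole flies, a pool can hold more or less RNA of a gene because its cells differ in number or because each cell holds more or less RNA, and these cannot be told apart.

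All values below are the deposited log ratios, read as log2, with the array's median subtracted and the 2 spots of a clone averaged. The pool difference is the mean of the 2 arrays with the sign as deposited. Which pool is the numerator is not given in the sources used here, so values are given as higher or lower in the numerator pool. That the sign follows the pools and not the dyes is itself an inference from the correlations between arrays, and results that turn with the other reading are named as such. Of 8448 clones, 2833 (33.5%) have 1 gene symbol, for 2377 genes, and the others are unnamed. Both arrays carry the same RNA, so tests against the spread between arrays speak of these pools only, and the small number of arrays bounds how precise any value is.

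The normal-label array spread more widely than the reversed-label array. Its clones had a robust SD of 0.329 against 0.208, and 153 clones (1.81%) lay past 2-fold against 54 (0.639%). On the normal-label array 88 of these clones were higher and 65 lower in the numerator pool, whereas on the reversed-label array 7 were higher and 47 lower. The 2 spots of a clone correlated across clones with r = 0.536 on the normal-label array and 0.291 on the reversed-label array. The paired spots differed by more than 1 log2 unit for 281 clones (3.33%) and 194 clones (2.3%) respectively.

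The 2 arrays did not show the same clones overall. Across the 8448 clones they correlated with r = -0.071 (Spearman's rho = -0.14), and 3726 clones (44.1%) had the same sign on both. The pairs of pools 3 and 4, 5 and 6, and 7 and 8 gave r of -0.118, 0.222 and -0.144 and shares of one sign of 41.5%, 59.5% and 44.2%. Clones are not replicates, so these are descriptions with no test. The normal-label array followed the dye component of the other pairs with a slope of 0.99 and the reversed-label array with a slope of -0.34, so the part of the ratio that follows the dyes was larger on 1 array than on the other. With that slope removed from each array the correlation was 0.077 and the share of one sign 50.7%.

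Clones that were far from 0 on both arrays were nonetheless mostly on 1 side. Below -0.5 on both arrays (at least 1.41-fold lower in the numerator pool) lay 85 clones, 1.01% of all clones, and above 0.5 on both lay 12, or 0.142%. Clones past 0.5 with opposite signs were balanced, with 33 higher on the normal-label array and 32 higher on the reversed-label array. Past 2-fold on both arrays lay 5 clones (0.0592%), all of them lower, and 0 clones were higher or opposite. The 3 clones just inside the -0.5 limit had the nearer of their 2 arrays at -0.501, -0.502 and -0.504, and the 3 just outside at -0.5, -0.498 and -0.497, so the limit cuts a continuous range. With the other reading of the direction, in which the reversed-label array is turned in sign, 32 clones were below -0.5 and 33 above 0.5 on both arrays. These values chose the sets, which are therefore described and not tested.

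**Figure D1:**
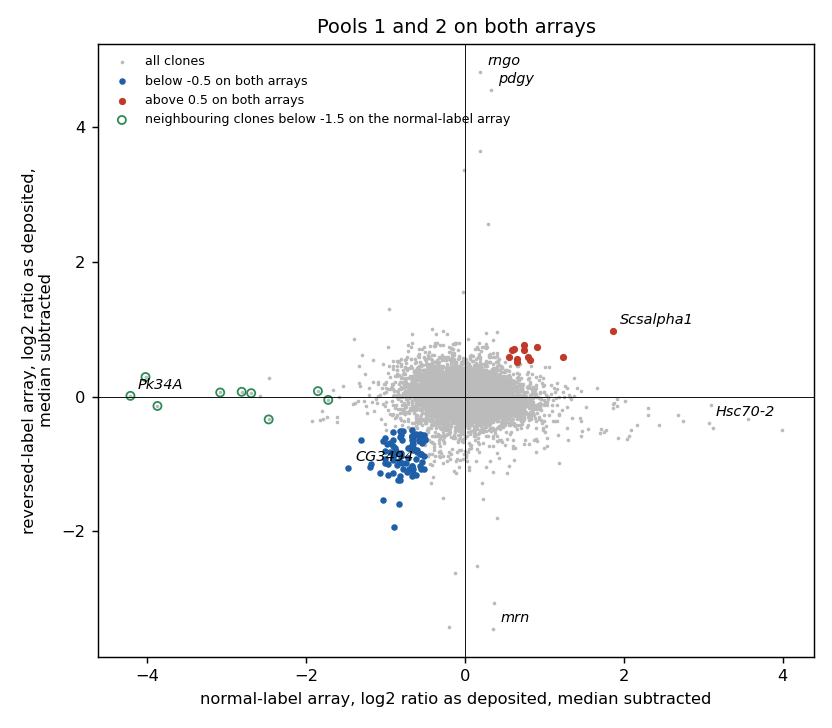
Each point is a clone, with its log2 ratio on the normal-label array (x axis) and on the reversed-label array (y axis), each with the median of its array subtracted. Blue points are the 85 clones below -0.5 on both arrays, red points the 12 above 0.5 on both, and green rings 9 neighbouring clones that are low on the normal-label array and near 0 on the other. The cloud has no slope, the lower left corner is fuller than the upper right, and pdgy, rngo, mrn, Pk34A and Hsc70-2 lie along 1 axis.

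No clone passed the test of the pool difference against the spread between arrays. With limma fitted to all 8 arrays (1 term for each pool pair and a common dye term), 0 of 8448 clones had a Benjamini-Hochberg adjusted p under 0.05, and the smallest adjusted p was 0.418. At an unadjusted p under 0.05 lay 549 clones (6.5%), of which 224 (2.65%) were higher and 325 (3.85%) lower in the numerator pool. Of the 325 lower clones 297 (91.4%) had both arrays below 0 (21.6% of all clones did). Of the 224 higher clones 169 (75.4%) had both above 0 (22.5% of all clones did). The same arrays gave the p, and a small p favours arrays of one sign, so these shares are descriptions only. With the slope on the dye component removed, 255 clones had an unadjusted p under 0.05. Against the spread of the other 3 pool pairs about 0, limma called 2 clones (0.0237%), for rngo and pdgy, both higher, and 170 clones (2.01%) had an unadjusted p under 0.05, 64 higher (0.758%) and 106 lower (1.25%). With the 8 arrays fitted singly and the pool pair as a replicate block, that test called 0 clones. Each of these 2 calls rested on 1 spot of 4, as given below. The part of the ratio that follows the dyes was tested against its mean in the other pairs, and not against 0. In that test limma called 2 clones (0.0237%), the same clones of rngo and pdgy. In the same test of the dye part 211 clones (2.5%) had an unadjusted p under 0.05, 114 higher (1.35%) and 97 lower (1.15%). The pool difference tested against the mean of the other pairs gave 0 calls.

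The named clones that were low on all 4 spots were mostly genes known by a CG number. CG3494 was the lowest of the named clones past 2-fold on both arrays. Its 2 spots on the normal-label array read -1.66 and -1.27 and those on the reversed-label array -1.0 and -1.12, a mean of -1.26 (SE 0.269, limma adjusted p = 0.45). All 4 spots were thus at least 2-fold lower in the numerator pool, yet the clone did not pass the test. eIF4E5, a paralogue of the cap-binding translation factor eIF4E, read -1.16, -1.22, -1.01 and -1.09 in the same order (mean -1.12, SE 0.244, limma adjusted p = 0.45). CG31639 read -1.08, -1.28, -1.01 and -1.0 (mean -1.09, SE 0.206, limma adjusted p = 0.418). For both genes the 4 spots lay within 0.3 of each other, on either array and with either dye. CG2750 read -1.02, -1.0, -1.01 and -0.96 (mean -1.0, SE 0.162, unadjusted p = 0.000376, limma adjusted p = 0.418). With the other reading of the direction, in which like values on both arrays cancel, the means of these genes were -0.20 (CG3494), -0.07 (eIF4E5), -0.09 (CG31639) and -0.01 (CG2750).

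Some of the other low clones belong to genes with known roles. Fum4 belongs to the fumarase family, whose members interconvert fumarate and malate, and read -1.13, -0.88, -0.99 and -0.86 (mean -0.97). tomboy20, a relative of the mitochondrial import receptor Tom20, read -0.75 and -0.55 on the normal-label array and -0.91 and -1.35 on the reversed-label array (mean -0.89). Neither gene overlapped 0 on any spot. Grasp65, a Golgi stacking protein, had a mean of -0.85, with its spots on the normal-label array at -1.02 and -1.04 and on the reversed-label array at -0.58 and -0.75. Sec16, a scaffold of the exit sites of the endoplasmic reticulum, had a mean of -0.71, with spots at -1.08, -0.95, -0.52 and -0.29. For both the normal-label array gave the larger size. lush, an odorant-binding protein needed for the response to a male pheromone, read -0.49, -1.51, -0.74 and -0.50 (mean -0.81). All 5 genes had limma adjusted p between 0.418 and 0.45. CG7202 (mean -1.04), CG12902 (-0.99), CG15461 (-0.93), CG31538 (-0.92), CG5653 (-0.92) and CG30430 (-0.69) complete the named clones of this kind. On CG15461 the normal-label array gave -0.23 and -1.46, the widest gap between paired spots among them.

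**Figure D2:**
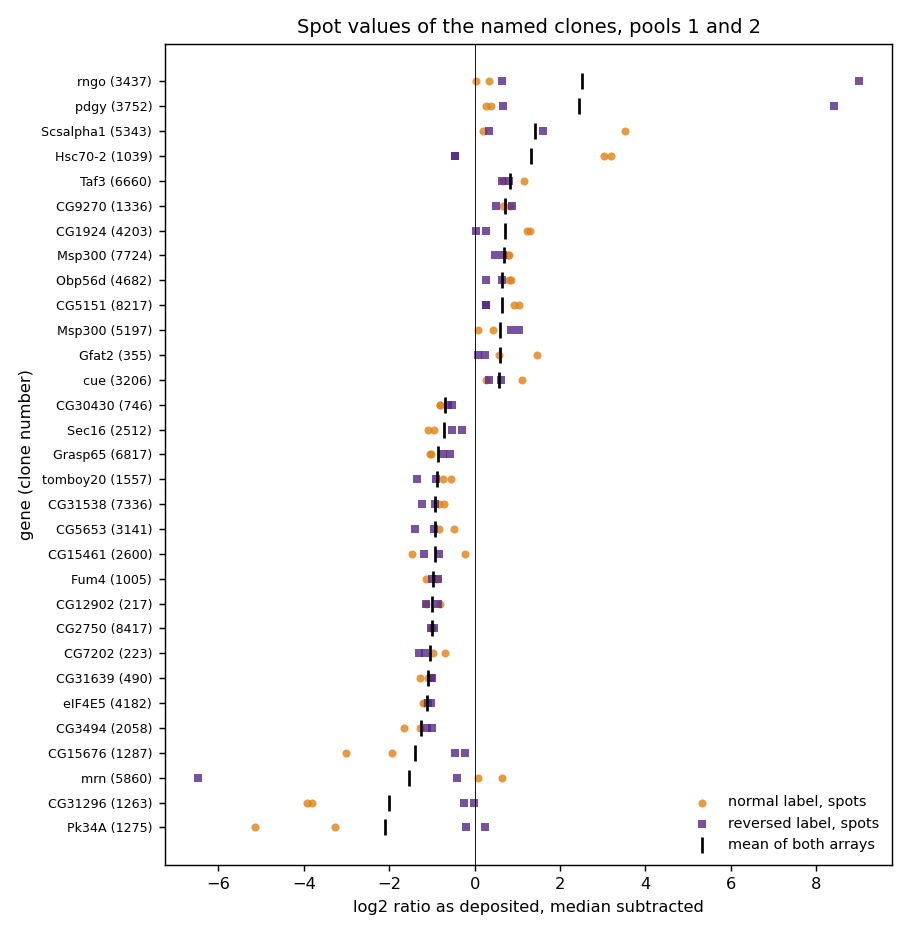
Each row is 1 of 31 named clones, with the log2 ratio of its 2 spots on the normal-label array (orange circles) and on the reversed-label array (purple squares), and their mean (black bar). The clones from CG3494 to CG30430 have 4 spots on 1 side of 0, whereas rngo and pdgy have 1 far spot each, and Pk34A, CG31296 and Hsc70-2 are far from 0 on the normal-label array alone.

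Of the 85 low clones 39 have a symbol, for 36 genes. Their pool differences ran from -1.41 to -0.54 with a median of -0.81. CG12902, CG30430 and CG33704 have 2 clones each in the set, the last with -0.91 and -0.85. Other members with known roles, chosen after their values were seen, are Vps2, a subunit of the ESCRT-III membrane-scission complex (-0.71), kek4, a transmembrane protein of the Kekkon family (-0.69), and GC2, a mitochondrial glutamate carrier (-0.54). On the normal-label array these 3 clones read -0.82, -0.66 and -0.51 and on the reversed-label array -0.60, -0.72 and -0.57. The arrays lay within 0.3 of each other for each of them.

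The clones low in pools 1 and 2 were often low in pools 3 and 4 too, and not in the other pairs. With the sign as deposited, 76 of the 85 (89.4%) were below 0 in pools 3 and 4, where 49.0% of all clones were, and their median there was -0.86. Below -0.5 on both arrays of pools 3 and 4 lay 53 of them, which is 62.4% of the 85 and 47.7% of the 111 clones of that kind in pools 3 and 4, against 1.31% of all clones. In pools 5 and 6, 43 of the 85 (50.6%) were below 0 with a median of 0.00, and in pools 7 and 8, 58 (68.2%) with a median of -0.07. In neither of these pairs was any of the 85 below -0.5 on both arrays, although 93 and 14 other clones were. The pairs share no pool, and the set was chosen without the values of pools 3 to 8. With the other reading of the direction, 32 clones were below -0.5 on both arrays of pools 1 and 2. Their overlap with the other pairs was not examined.

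Single genes followed the same pattern, and several were further from 0 in pools 3 and 4. eIF4E5 had pool differences of -1.12, -1.55, 0.21 and -0.25 in pools 1 and 2, 3 and 4, 5 and 6, and 7 and 8. Fum4 had -0.97, -1.54, 0.22 and -0.17 in that order, and tomboy20 -0.89, -1.03, 0.12 and -0.05. All 3 were low in the first pairs and within 0.3 of 0 in the others. lush was an exception among the named clones, with -0.81, 0.21, -0.40 and 0.04, and 8 other clones of the 85, none of them named, were also at or above 0 in pools 3 and 4. Whether both pairs share something in the flies, the RNA or the hybridizations that the other pairs do not was not tested.

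**Figure D3:**
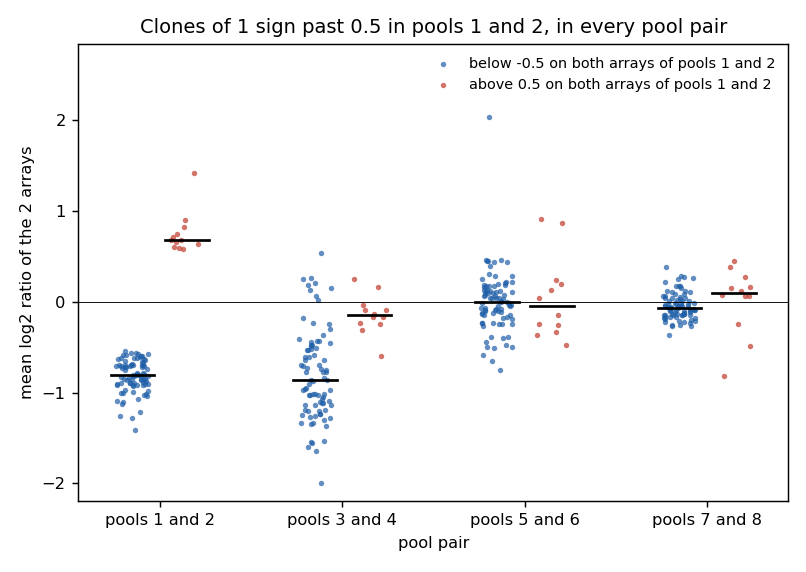
Each point is a clone, with the mean log2 ratio of the 2 arrays (y axis) in each pool pair (x axis), for the 85 clones chosen below -0.5 (blue) and the 12 chosen above 0.5 (red) on both arrays of pools 1 and 2. Black bars are medians. The blue medians are -0.81, -0.86, 0.00 and -0.07 from left to right, and the red median of 0.68 in pools 1 and 2 is -0.15 in pools 3 and 4.

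The low clones were concentrated in 1 part of the spot order. The numbering falls into 32 runs of 264 clones, each of 22 rows of 12 clones, a layout inferred from the numbering. In rows 17 to 20 of the runs lay 71 of the 85 low clones (83.5%), although these rows hold 1536 clones, or 18.2%. Low clones made up 4.62% of those rows and 0.20% of the others. They were spread over 31 of the 32 runs, so they are not neighbours in 1 place of the numbering. Of the 39 named low clones 38 lay in those rows, all but kek4, where 29.5% of clones with a symbol lie. In pools 3 and 4, 79 of 111 low clones (71.2%) lay there too, in pools 5 and 6, 25 of 93 (26.9%), and in pools 7 and 8, 1 of 14 (7.14%). All these counts take the sign as deposited, and the rows were not examined under the other reading of the direction.

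Most clones of those rows were near 0. Their median pool difference was -0.04 against 0.01 elsewhere, and 2 of the 12 high clones lay there. A series of 159 clones, picked by a range of GenBank entry numbers, lay wholly within the rows. It held 11 low clones (6.92%) and had a median of -0.08. The rows and the series were singled out after their values were seen, what the rows hold is not given in the sources used here, and whether source plates, clone origin or printing has a part in the low values was not tested.

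**Figure D4:**
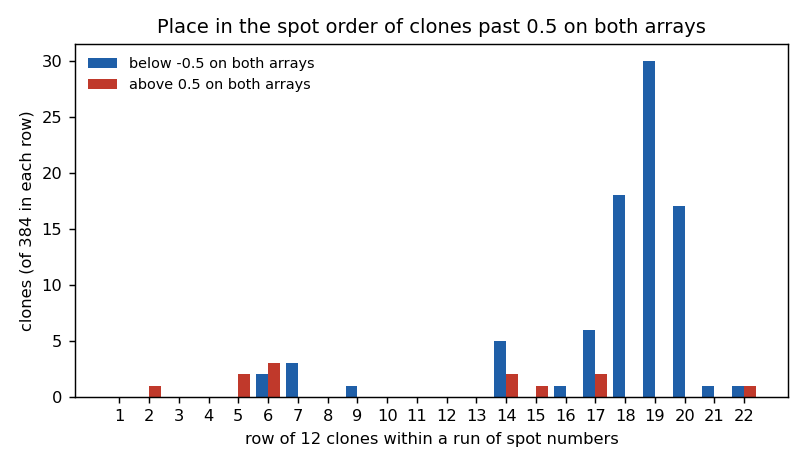
Bars give the number of clones below -0.5 (blue) and above 0.5 (red) on both arrays of pools 1 and 2, of 384 clones in each of the 22 rows (x axis) of the runs of spot numbers. Rows 18, 19 and 20 hold 18, 30 and 17 low clones, and no row holds more than 3 high clones.

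Among the clones that were high on all 4 spots, the values were mostly smaller than among the low clones. Taf3, a subunit of the general transcription factor TFIID, read 0.66 and 1.16 on the normal-label array and 0.65 and 0.81 on the reversed-label array (mean 0.82, SE 0.201, limma adjusted p = 0.45). CG9270 read 0.82, 0.67, 0.50 and 0.88 (mean 0.72, SE 0.178, limma adjusted p = 0.45). For both genes the arrays lay within 0.2 of each other. Msp300, which encodes a giant nesprin that anchors nuclei in muscle, had clones at 0.68 and 0.60, whereas its remaining clone read -0.10. Obp56d, an odorant-binding protein, had both clones high, at 0.64 and 0.45, and Gfat2, an enzyme of hexosamine synthesis, at 0.59 and 0.34. cue, which encodes a membrane protein, had a mean of 0.58, with normal-label spots at 1.11 and 0.27 and reversed-label spots at 0.34 and 0.62.

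CG1924 and CG5151 were high mainly on the normal-label array, with 1.26 and 0.98 there against 0.15 and 0.27 on the reversed-label array. Their dye components in the other pairs averaged 0.62 and 0.58, and with the slope on that component removed their means went from 0.70 to 0.50 and from 0.63 to 0.44. The 12 clones above 0.5 on both arrays, of which 5 are named, had a median of 0.68 in pools 1 and 2, -0.15 in pools 3 and 4, -0.05 in pools 5 and 6 and 0.10 in pools 7 and 8.

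The largest pool differences were of another kind and came from single spots or a single array. rngo, which encodes a ubiquitin-binding protein needed for ring canals in the ovary, had a mean of 2.51, with spots of 0.04 and 0.33 on the normal-label array and 0.64 and 9.01 on the reversed-label array. pdgy, an acyl-CoA synthetase gene, had a mean of 2.44, with 0.27, 0.39, 8.42 and 0.67. In each case the other 3 spots lay between 0.04 and 0.67. Their medians over the 4 spots were 0.49 and 0.53. mrn, which encodes a subunit of the general transcription factor TFIIH, read 0.64, 0.08, -0.41 and -6.48. Scsalpha1, the alpha subunit of succinyl-CoA synthetase, read 0.20 and 3.52 on the normal-label array and 1.60 and 0.33 on the reversed-label array, a mean of 1.42 with the smallest p of all named clones (SE 0.229, unadjusted p = 0.00037, limma adjusted p = 0.418). On both arrays its paired spots differed by more than 1 log2 unit.

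A group of neighbouring clones was low on the normal-label and not on the reversed-label array of pools 1 and 2. Between clones 1250 and 1287, a span of 38 clones in 1 run, 9 clones were below -1.5 on that array, of 21 such clones on the whole array. Their median was -2.81 on the normal-label array and 0.05 on the reversed-label array, and 8 of the 9 had another of them 12 clones, or 24 spots, away. All 9 lay in rows 17 to 20 as well, but none was below -0.5 on the reversed-label array. The 4 named ones, of which CG8517 was chosen after its values were seen, are Pk34A, a protein kinase gene (-5.15, -3.27, 0.24 and -0.21), CG31296 (-3.81, -3.92, -0.02 and -0.26), CG15676 (-3.00, -1.94, -0.47 and -0.22) and CG8517 (-2.53, -3.62, 0.07 and 0.05). On the normal-label array of pools 3 and 4, 4 of the 9 were low as well, at -6.18, -2.35 (CG8517), -1.02 and -1.0, whereas Pk34A read 1.51 and CG31296 0.51. A second clone of CG15676, elsewhere on the array, had a mean of -0.35. The other 7 clones of CG8517 ran from -0.89 to 0.44, and the lowest of these read -0.70 and -1.07 on the 2 arrays.

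Averaging both arrays left 46 clones past 2-fold (0.545%), 16 higher (0.189%) and 30 lower (0.355%) in the numerator pool, of which 21 have a symbol. Their arrays had one sign in 25 and opposite signs in 21. All 4 spots had one sign in 19, 4 higher and 15 lower. Over all clones the 4 spots were above 0 for 798 (9.45%) and below 0 for 849 (10.0%). In 28 of the 46 at least 1 spot was past 3 log2 units, and in 23 the median of the 4 spots was past 2-fold too. The group of neighbouring clones made up 7 of the 30 lower ones. Pools 3 and 4, 5 and 6, and 7 and 8 had 81, 136 and 25 clones past 2-fold by the same measure.

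The heat shock and chaperone genes, which help proteins fold and in part are induced by heat and other stress, had mostly opposite signs on the 2 arrays. Of 29 clones for 16 genes 0 were called, and the median was 0.09, against 0.007 over all clones. At an unadjusted p under 0.05 lay 6, all with a mean above 0 (2.65% of all clones were). Of these, both Hsc70-2 clones, a Hsc70-1 clone and Hsp68 had opposite signs on the arrays. The DnaJ-1 clones among them had one sign. On the normal-label array 24 of the 29 were above 0 (50.1% of all clones were), with a median of 0.16, whereas on the reversed-label array 20 were below 0, with a median of -0.08. Only 8 had one sign on both arrays (44.1% of all clones did). Hsc70-2, a constitutive relative of Hsp70, read 3.20 and 3.03 on the normal-label array and -0.47 and -0.47 on the reversed-label array, and its second clone 3.13, 3.01, -0.40 and -0.37. Its paired spots and its clones were alike, but the arrays had opposite signs, and in the other pairs its dye component averaged 1.58 and 1.54.

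Other members of the list showed the same split. Hsp68, an inducible Hsp70 gene chosen after its values were seen, read 1.78 and -0.49 on the 2 arrays. Hsc70-1 had 2.06 and -0.59 for 1 clone, 1.93 and -0.62 for another and 0.36 and -0.17 for the last. DnaJ-1, a co-chaperone of Hsp70, had 8 clones, which ran from -0.21 to 0.58. The highest read 0.56 and 0.59 on the 2 arrays and the next 0.50 and 0.39, each with an unadjusted p under 0.05. With the slope on the dye component removed the median of the list was 0.06.

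The odorant-binding proteins, which carry odours to receptors in the antennae and other organs, had a median of -0.15 over 27 clones for 21 genes, none of which was called. At an unadjusted p under 0.05, 4 were lower and 1 higher (3.85% and 2.65% of all clones were), and 18 had a mean below 0, as had 4105 of all 8448 clones. Whether the list differs from other genes was not tested. Both arrays were below 0 for 13 clones (21.6% of all clones) and above 0 for 6. The median was -0.29 on the normal-label array and -0.04 on the reversed-label array. After lush, Obp19a was lowest, with -0.82 and -0.32 on the 2 arrays, and Obp19c had -0.47 and -0.28 for 1 clone and -0.29 and -0.23 for the other. Obp56d was the highest of the list on both its clones, as above.

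Lists of tissue markers bear on whether the pools held the same mix of tissues. Markers of the male reproductive tract, which should be low in females, had 23 clones for 16 genes with a median of -0.05. On both arrays 11 were below 0 and 4 above 0 (21.6% and 22.5% of all clones were). The list was drawn up by patterns of gene names and need not hold every gene of that tract. The low clones of eIF4E5, Fum4 and tomboy20 are not on it, and in which tissues these genes are expressed was not examined. The list's median therefore does not speak for them, and whether the pools differ in male transcripts was not tested. Clones of the list ranged from -0.30 to 0.89. The highest, Prosalpha4T1, a testis-specific proteasome subunit, read 1.74 and 2.03 on the normal-label array and -0.37 and 0.18 on the reversed-label array. Muscle genes had 11 clones and a median of -0.10, from the flight muscle actin Act88F (-0.26 and -0.68 on the 2 arrays, mean -0.47) to the tropomyosin Tm2 (2.09 and -0.50, mean 0.79). Act88F was thus low on both arrays and Tm2 had opposite signs. Clones of the yolk and fat body list numbered 7, with a median of 0.24. At an unadjusted p under 0.05, 2 of the 7 were higher (2.65% of all clones were). Among them apolpp, the precursor of the lipid carrier lipophorin, read 0.32 and 0.52 on the 2 arrays (mean 0.42, limma adjusted p = 0.757).

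The single eggshell clone, CG13083, had a mean of 0.53, with 1.0 on the normal-label array and 0.06 on the reversed-label array. Clones of the ovary germline list numbered 4, with a median of 0.13. They include exu, which localises maternal mRNA in the egg, at 0.14 on both arrays for 1 of its clones. Gut enzymes had 3 clones, all above 0 on both arrays, with a median of 0.23. Nervous system genes had 11 clones, with a median of -0.23 on the normal-label array and 0.27 on the reversed-label array, which cancelled to 0.03. Eye genes had 8 clones and a median of 0.02.

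The remaining lists had medians within 0.3 of 0 and 0 calls. Ribosomal proteins, with 14 clones for 6 genes, had -0.12. Most of these clones are of RpL32, so the median is mainly that of 1 gene. The furthest from 0 was RpS10a, with 1.91 on the normal-label array and -0.14 on the reversed-label array (mean 0.89). Oxidative phosphorylation, with 12 clones, had -0.09, and the proteasome, with 13, 0.04. Tubulins and actins, with 6 clones, had 0.21, led by alphaTub85E at 2.74 on the normal-label array and -0.36 on the reversed-label array. The alcohol and aldehyde list had a median of -0.01 over 3 clones, for Aldh7A1, Aldh-III and Fatp1. Only the Aldh genes are aldehyde dehydrogenases by name, and no alcohol dehydrogenase is on the list, so it says little about the handling of ethanol. Among enzymes that handle foreign compounds the median was 0.01 for 4 clones of cytochrome P450. It was -0.08 for 3 of glutathione S-transferases and -0.08 for 7 of UDP-glycosyltransferases. In these lists 1 clone of each of 2 genes had an unadjusted p under 0.05 and all 4 spots on 1 side of 0. Over all clones 6.5% had such a p. Cyp12d1-p, a cytochrome P450, had a mean of 0.40 (limma adjusted p = 0.757), with 0.71 on the normal-label array and 0.08 on the reversed-label array. Ugt35D1 had a mean of -0.40 (limma adjusted p = 0.679), with -0.67 and -0.13. Antioxidant genes had -0.09 over 9 clones, although the superoxide dismutase genes Sod2 and Sod3 read 1.29 and 1.19 on the normal-label array and -0.47 and -0.27 on the other. The medians for the other lists were -0.03 (circadian clock, 8 clones), -0.06 (cuticle, 15), -0.04 (immunity, 8), -0.01 (lipid and fatty acid metabolism, 9) and 0.04 (cell cycle, 6).

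**Figure D5:**
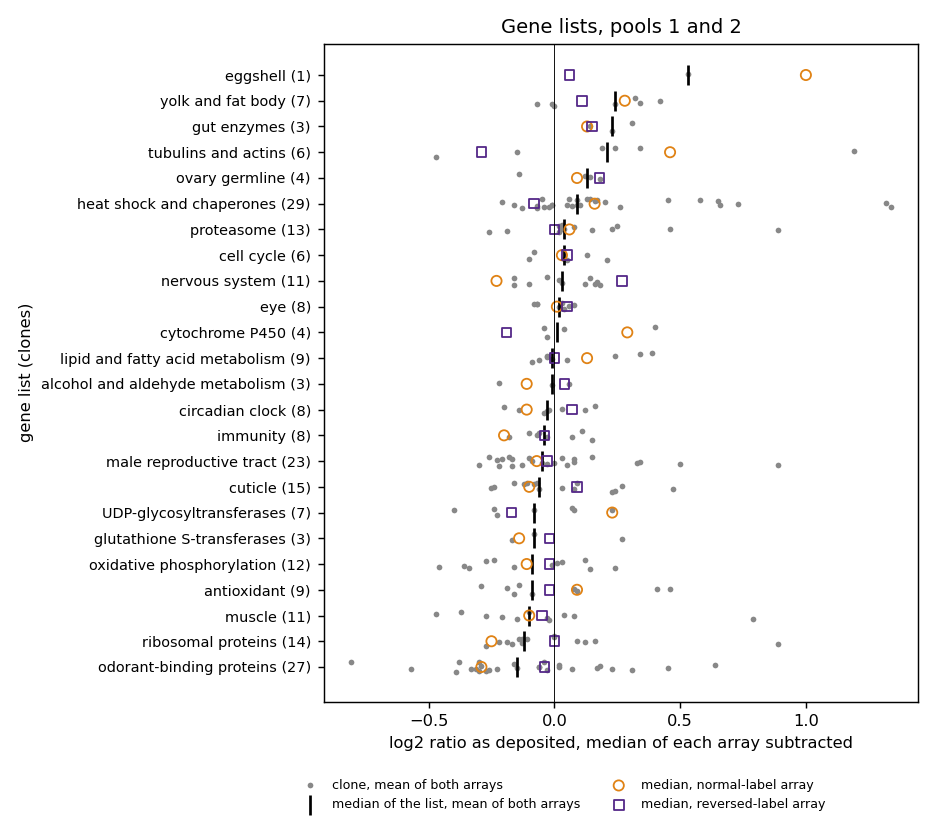
Each row is a gene list with its number of clones. Grey points are the clones' mean log2 ratios over both arrays, black bars the list's median, and open circles and squares the medians on the normal-label and reversed-label arrays. For heat shock genes, tubulins and actins and nervous system genes the array medians lie on opposite sides of 0. The same holds for other lists, among them cytochrome P450, UDP-glycosyltransferases, circadian clock and cuticle. The list medians lie between -0.15 and 0.53.

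Different clones of 1 gene gave weak agreement. For 288 genes with several clones (744 clones, 1012 pairs of clones) the pool differences correlated with r = 0.128 across pairs, which share genes and arrays, and 54.2% of pairs had one sign. Of the pairs with both clones past 0.5, 14 had one sign and 1 had opposite signs. Several of the 14 come from CG12902 alone, with clones at -0.99, -0.72, -0.65 and -0.53. CG30430 had 5 clones, at -0.83, -0.69, -0.39, -0.32 and -0.21, all below 0. CG12902 had 14 clones from -0.99 to 0.31, 9 of them below 0. For CG31639, CG7202, CG15461 and CG31538 the second clone read -0.01, 0.05, 0.14 and -0.12, against -1.09, -1.04, -0.93 and -0.92 for the clone given above.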

How the data were processed

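The authors deposited a log2 ratio for each of 16896 spots on 8 arrays (the log base was inferred from their size, the largest being 17.5). How they corrected background, normalized and scanned is not given in the sources used here, and the deposited medians were near 0. Each array's median was subtracted and neighbouring spots were averaged. Symbols came from GEO's platform annotation, which gave 1 symbol for 2833 clones, several for 76 and none for 5539, and all were found in the RefSeq gene table. No sequences or coordinates are given, since no build is named.

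Tests used limma 3.58.1 in R 4.3.3 with Benjamini-Hochberg adjustment over 8448 clones at 5%, and were tested on simulated data. The technical test had 1 coefficient for each pool pair and a common dye term over 8 arrays (3 residual degrees of freedom). The test against the other pairs used 4 pair means and no intercept. The difference between the arrays of a pair divided by 2, the dye component, was tested over the same pairs with an intercept. That test sets pools 1 and 2 against the mean of the other pairs. Replicate numbers pair the arrays because the labels give both arrays of a pair the same pools. Separate pools stand behind different pairs.

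The sign was read as pool over pool because arrays of opposite labelling from different pairs, which share no RNA, correlated below 0 at the median. Named genes were those with 1 symbol that had the 12 highest and 12 lowest means among clones with 4 spots of one sign, the 6 smallest p, the 3 largest means of each of 24 gene lists, the 6 largest differences between the arrays, and the other clones of the first and second kinds. The members, lists and rules were chosen with earlier results of these data known, and patterns in the lists that matched wrong names were tightened after the values were seen. Alternatives were other centring, scaling, spots, filters, direction, dye correction, error models and sets of arrays.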

Additional observations from a re-analysis of the deposited data

Results flagged for a closer look

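For each of 31 named clones the 4 arrays of a label group were searched for 1 value far from the other 3, by Dixon's test. The arrays' robust SD, share of clones past 2-fold and correlation of paired spots were searched likewise. Cases were kept where the far array was that of pools 1 and 2. It was so for 6 of 68 groups of 4 arrays, and all 6 were of clones. The clones had been named in part for extreme values on these arrays, so a far value was favoured by the choice. The count is a description that cannot be set against the 1 group in 20 that chance flags among unselected groups. That rate also counts a far value on any of the 4 arrays, whereas only those on the array of pools 1 and 2 were kept. On the normal-label array CG15676 stood at -2.47 (the other 3 arrays between -0.13 and 0.10), CG31296 at -3.87 (between -0.20 and 0.51) and Scsalpha1 at 1.86 (between -0.44 and -0.17). On the reversed-label array mrn stood at -3.45 (between -0.19 and -0.08), pdgy at 4.55 (between -0.41 and 0.10) and rngo at 4.82 (between -0.14 and 0.04). The first 2 belong to the group of neighbouring low clones, and the spot values of all 6 are given above.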

How the results depend on the processing

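In the technical test 0 clones were called under all but 3 alternatives: quantile normalization called 1 (Scsalpha1, adjusted p = 0.034), and leaving out 1 array of pools 1 and 2 called 5 (without the reversed-label array) or 7 (without the normal-label array), the latter with rngo and pdgy (both 0.00169) and mrn (-3.32, 0.00482), the former with CG31296 (-4.20, 0.0221) and Pk34A (-4.51, 0.0344). The 549 clones at an unadjusted p under 0.05 became 255 with the dye slope removed, 256 with no dye term, 287 with the other reading of the direction and 229 without the normal-label array. Against the other pairs, the 2 calls became 10 with arrays scaled to 1 spread, 13 with quantile normalization, 19 with single spots, 5 with the other reading, 5 with robust moderation, 0 without clones whose spots disagree, 0 with an intercept, and 0 with 8 arrays either with the replicate block or with no block. Leaving out another pair gave 0 to 12. The dye test called 2 clones (rngo and pdgy, the dye part lower), 7 after scaling and 0 to 13 with a pair left out.

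The 46 clones past 2-fold became 71 after scaling, 119 of 16896 single spots, 22 without disagreeing spots, 27 by the median of 4 spots (added after seeing the data), and 54 to 153 on 1 array. The 5 past 2-fold on both arrays became 8 with quantile normalization, 14 with single spots and 0 with the other reading, under which the share of one sign was 55.9%. The counts below -0.5 and above 0.5 on both arrays, also added, were 206 and 67 with single spots and 32 and 33 with the other reading, and the 12 high clones became 22 after scaling and 21 with quantile normalization.

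The other reading turned the sign of rngo (-2.32), pdgy (-2.11), 1 Msp300 clone (-0.34), CG7202 (0.20), CG12902 (0.01), CG15461 (0.08), CG31538 (0.15), CG5653 (0.26), tomboy20 (0.24) and mrn (1.90). Without the normal-label array CG31296 was 0.19 and Pk34A 0.32, and without the reversed-label array mrn was 0.24. Other clones kept their sign under the other reading but came near 0, among them eIF4E5 (-0.07), CG31639 (-0.09), CG2750 (-0.01), Fum4 (-0.04), CG3494 (-0.20), CG9270 (0.03) and Taf3 (0.09). By sign and side of the threshold alone, the remaining 625 of 644 values, over 31 named clones and 21 settings, were kept. Causes were not tested, beyond single spots doubling the number of features and 1 array leaving a lone value.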
